A study of Mus musculus with 2 samples.

Results

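The 28 genes described here encode 18 enzymes of cholesterol synthesis, 4 proteins that control the transcription factor SREBP2 or are SREBP2 itself, and 6 proteins of cholesterol transport, esterification and receptor control. They were taken by gene symbol, and all 28 were found among the 43346 mouse gene identifiers of the deposited tables. The RNA came from whole liver of adult C57BL/6J mice, 8 weeks old, with no treatment or genotype named, and molecules above 200 nucleotides were sequenced in 2 libraries that form 1 group. The labels list each library as a biological replicate with its own biosample but give both the same donor identifier, and the sex was not collected. The spread between the libraries may therefore be partly or wholly technical, and with 1 group no test between groups exists.

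Liver makes cholesterol from acetyl-CoA through mevalonate, farnesyl diphosphate, squalene and lanosterol. SREBP2 is a membrane-bound transcription factor for most enzymes of the route. When sterols are scarce the escort protein SCAP carries it to the Golgi apparatus, where proteases release its active part, and when sterols are plentiful an INSIG protein holds the SCAP complex in the endoplasmic reticulum.

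Mouse gene identifiers held 83816487 expected counts in replicate 1 and 71068191 in replicate 2. Members held 643 to 49016 counts in replicate 1 and 710 to 42235 in replicate 2, and the standard error of a ratio from counting alone ran from 0.0096 (Sc5d) to 0.0743 (Soat1) on the log2 scale. Levels are TPM, an abundance corrected for transcript length and library size, here rescaled without spike-ins. The 6 hepatocyte markers summed to 10163 and 16257 TPM. RNA of other tissue types differed between the libraries. The 10 adrenal cortex markers summed to 7.16 and 25.4 TPM, with 4 at 0 counts in replicate 1 and none in replicate 2. Mrap alone held 6.28 and 9.32 TPM of these sums, so the rest of the list differed more than the sums show. The 7 pancreatic acinar markers summed to 118 and 41.5 TPM, none at 0. The 7 Kupffer cell markers summed to 49.0 and 55.1 TPM but to 27667 and 21686 counts. The 6 intestinal markers summed to 68.7 and 61.1 TPM, with Sis at 0 in both; Apoa4 and Mttp, also expressed by hepatocytes, made up most of that sum, and Fabp2, the intestinal fatty acid binding protein, stood at 11.4 and 5.77 TPM. Adrenal cortex also makes and stores cholesterol, and the part of these tissues in the values below was not tested. In bulk tissue, fewer cells of a type and less RNA per cell cannot be told apart.

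All 18 synthesis enzymes were above 1 TPM in both libraries. Their levels summed to 365 TPM in replicate 1 and 452 TPM in replicate 2, a mean of 0.0409% ± 0.00613 (SD, n = 2) of all endogenous TPM. Noncoding RNA took most of the TPM total, and of the protein-coding TPM alone the enzymes took 0.2997% and 0.276%, a mean of 0.288% ± 0.0164 (SD, n = 2). The protein-coding share was thus higher in replicate 1 and the share of all TPM higher in replicate 2.

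The first 7 enzymes described here act between acetyl-CoA and farnesyl diphosphate, and they are not every enzyme of that stretch. Acat2, the cytosolic thiolase that joins acetyl-CoA units, stood at 8.18 TPM in replicate 1 and 11.4 TPM in replicate 2. Hmgcs1, the cytosolic HMG-CoA synthase (chr13:119690379-119708260, plus strand, mm10), stood at 45.0 and 47.3 TPM. The pair of mevalonate-activating kinases were lower, with Mvk at 4.39 and 5.66 TPM. Pmvk, the second kinase, stood at 12.2 and 11.95 TPM. Mvd, the decarboxylase that makes isopentenyl diphosphate (chr8:122433601-122443422, minus strand), stood at 2.28 and 2.26 TPM and was the lowest of the 18 enzymes in both libraries. Idi1, the isomerase that follows it, stood at 24.9 and 24.6 TPM. Fdps, the farnesyl diphosphate synthase (chr3:89093588-89101959, minus strand), was the highest of these 7 genes at 49.9 and 65.2 TPM. Among these 7 genes, those from Mvk to Mvd thus lay at lower levels than Hmgcs1, listed before them, and Idi1, listed after them.

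From squalene onward the levels again spanned a wide range. Fdft1, the squalene synthase, stood at 9.19 and 10.7 TPM. Sqle, which adds the epoxide oxygen to squalene, stood at 6.22 and 6.35 TPM. Lss, the cyclase that makes lanosterol, stood at 4.65 and 8.00 TPM. These steps around squalene all lay well under Fdps in both libraries. Cyp51, the lanosterol demethylase, stood at 15.5 and 15.9 TPM. Tm7sf2, a sterol reductase of the next step, stood at 20.2 and 31.6 TPM. Msmo1, the C4-methyl oxidase, stood at 38.3 and 39.3 TPM. Nsdhl and Hsd17b7, which work with Msmo1 to remove the C4 methyl groups, were far lower: Nsdhl stood at 3.82 and 3.91 TPM. Hsd17b7 stood at 4.52 and 5.24 TPM. The 3 partners of C4 demethylation thus differed in RNA level in the same order in both libraries.

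The last steps held the highest level of the 18 enzymes. Ebp, the sterol isomerase, stood at 26.4 and 41.05 TPM. Sc5d, the lathosterol desaturase (chr9:42251595-42264256, minus strand), stood at 80.4 and 106.9 TPM and was the highest of the 18 enzymes in both. Dhcr7, the 7-dehydrocholesterol reductase, stood at 9.19 and 14.8 TPM. Sc5d alone took 22.8% ± 1.16 (SD, n = 2) of the summed TPM of the 18 enzymes, Fdps 14.05% ± 0.537 and Hmgcs1 11.4% ± 1.31. Mvd took 0.562% ± 0.0875, and the Sc5d level was 35.3 and 47.3 times the Mvd level. The order of the 18 levels was close to the same in the libraries, with a Spearman correlation of 0.985 across the enzymes, which share the library preparation and are not independent replicates. Neighbours in that order could change places: Idi1 stood above Tm7sf2 in replicate 1, at 24.9 and 20.2 TPM. In replicate 2 Idi1 stood below Tm7sf2, at 24.6 and 31.6 TPM.

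**Figure D1:**
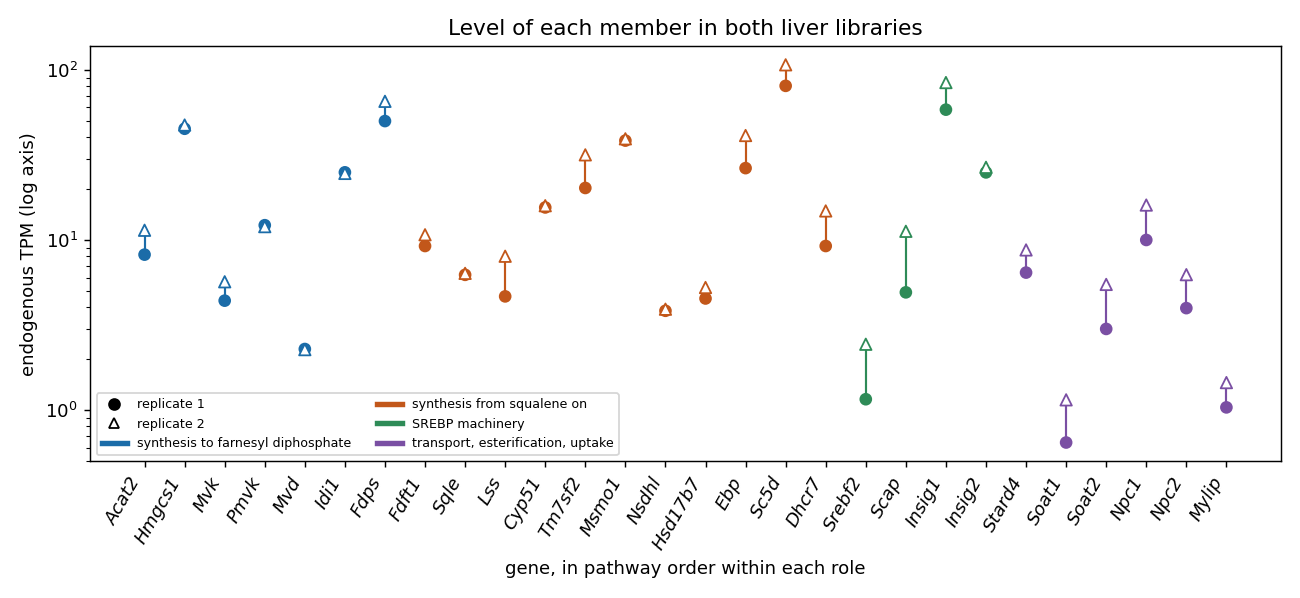
Level of each of the 28 genes in endogenous TPM on a log axis, with 1 point for each library and the genes in pathway order. Sc5d is the highest, at 80.4 and 106.9 TPM, and Soat1 the lowest, at 0.64 and 1.14 TPM.

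Genes of the SREBP machinery differed in level by more than an order of magnitude. Srebf2, which encodes SREBP2 (chr15:82147181-82205379, plus strand), stood at 1.15 and 2.43 TPM. Scap, the escort protein, stood at 4.91 and 11.2 TPM. Insig1, which is itself an SREBP target (chr5:28071363-28078662, plus strand), stood at 58.3 and 84.1 TPM. Insig2, the family member known for a liver transcript controlled by insulin (chr1:121304353-121332589, minus strand), stood at 24.9 and 26.7 TPM. The retention proteins were thus the abundant RNAs of the machinery and the transcription factor the scarce one, in both libraries. Within a library the level of Insig2 was 0.428 and 0.317 of that of Insig1, a mean of 0.372 ± 0.0780 (SD, n = 2). Srebf1, which encodes SREBP1 and drives fatty acid synthesis, stood at 16.4 and 22.8 TPM, 14.2 and 9.39 times the level of Srebf2.

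Transport and storage genes had a median level of 3.48 TPM in replicate 1 and 5.85 TPM in replicate 2. The median was higher for the 18 enzymes, at 10.7 and 13.4 TPM. All protein-coding genes with enough counts for a ratio between the libraries had a lower median, at 1.48 and 2.14 TPM. Soat1 and Mylip lay under that last median in both libraries, and the other genes of this set above it. Stard4, a cytosolic sterol carrier, stood at 6.41 and 8.72 TPM. Npc1, the lysosomal membrane protein that exports cholesterol, stood at 9.98 and 16.0 TPM. Npc2, its soluble partner in the lysosome, stood at 3.96 and 6.24 TPM. The membrane partner was the higher of the lysosomal pair in both libraries. Soat2, the cholesterol acyltransferase known from hepatocytes and enterocytes, stood at 2.99 and 5.46 TPM. Soat1, the acyltransferase known from macrophages and adrenal cortex, stood at 0.64 and 1.14 TPM, and was the only member under 1 TPM in a library. The Soat2 level was 4.66 and 4.77 times that of Soat1, a mean of 4.71 ± 0.0818 (SD, n = 2). In counts not divided by length the ratio was 2.93 and 2.42, a mean of 2.68 ± 0.359 (SD, n = 2). Mylip, the ubiquitin ligase that removes lipoprotein receptors, stood at 1.03 and 1.45 TPM.

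Members that are known for close relatives were set beside them. Acat1, the mitochondrial thiolase, stood at 4.29 and 3.77 times Acat2. Idi2, the paralog of Idi1, held no counts in either library. Mir33, the microRNA gene inside an intron of Srebf2, held none either, and its 69-nucleotide hairpin is shorter than the RNA selected for sequencing.

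Between the libraries, 14 of the 18 enzymes were lower in replicate 2 after scaling by the trimmed mean of M-values (TMM), a scaling that assumes most genes do not differ. Ratios are log2 of replicate 2 over replicate 1, from TMM-scaled CPM (counts scaled to the library total) plus 0.5. Of the 11582 genes with a mean count of 100 or more, 51.3% were lower in replicate 2, 48.7% were higher and 2.64% lay more than 2-fold apart, 1.55% on the lower and 1.09% on the higher side. None of the 28 members lay more than 2-fold apart under TMM, though with deposited TPM Scap and Srebf2 did. The median ratio was -0.35 over the 18 enzymes and -0.01 over all genes, whose middle 50% ran from -0.22 to 0.21. Each ratio compares single libraries of 1 group, has no replicate check and describes these libraries only.

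The enzymes are given in 3 ranges of ratio, set after their values were seen. A first set of 7 lay between -0.56 and -0.48: Hmgcs1, Mvd, Idi1, Sqle, Cyp51, Msmo1 and Nsdhl. Of all genes, 8.93% had a ratio under -0.45. Counts of Idi1 were 21738 in replicate 1 and 13818 in replicate 2, a ratio of -0.56. Counts of Msmo1 were 19219 and 12533, a ratio of -0.53. These 7 genes come from early and late steps of the route and from levels of 2.27 TPM (the mean for Mvd) to 46.2 TPM (the mean for Hmgcs1). A second set of 7 lay between -0.38 and -0.08: Pmvk at -0.38, Hsd17b7 at -0.36, Fdft1 at -0.33, Mvk at -0.23, Fdps at -0.16, Sc5d at -0.14 and Acat2 at -0.08. The remaining 4 lay above 0: Ebp at 0.17, Dhcr7 and Tm7sf2 at 0.11 and Lss at 0.09. Counts of Ebp were 9680 and 10217. All 7 listed enzymes up to farnesyl diphosphate were lower in replicate 2, with a median of -0.38, and 7 of the 11 later ones, with a median of -0.33.

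The sterol-sensing genes did not share one direction under TMM, whereas with deposited TPM all were higher in replicate 2. Counts of Scap were 6282 in replicate 1 and 9195 in replicate 2, a ratio of 0.64. Counts of Srebf2 were 1745 and 2339, a ratio of 0.50. Insig1 was level between the libraries at -0.02, while Insig2, with 10636 and 7460 counts, had a ratio of -0.42. Under TMM the transcription factor and its escort were thus on the higher side in the library in which most synthesis enzymes were on the lower side. Of the 6 transport and esterification genes, 4 were higher in replicate 2 under TMM, and all 6 with the spike-in total or deposited TPM. Soat1 had 643 and 913 counts, a ratio of 0.57, and Soat2 a ratio of 0.31. Npc1 stood at 0.13 and Npc2 at 0.10, against -0.08 for Mylip and -0.15 for Stard4.

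The direction of these ratios depended on the scaling. With deposited TPM the median of the 18 enzymes was 0.22, 3 enzymes were lower in replicate 2 and the median of all genes was 0.54. With the total of the spike-ins, synthetic RNAs added to each sample, the medians were -0.027 for the enzymes and 0.29 for all genes, and 10 enzymes were lower. Of the 18 enzymes, 14 lay below the median of all genes under TMM. DESeq2 size factors and the spike-in total shift all ratios by nearly the same amount, so they leave that count as it is by construction. Deposited TPM, which also divides by a length estimated in each library, gave 14 too. With deposited TPM, Scap at 1.19 and Srebf2 at 1.07 were more than 2-fold higher in replicate 2, which no member was under the other scalings.

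**Figure D2:**
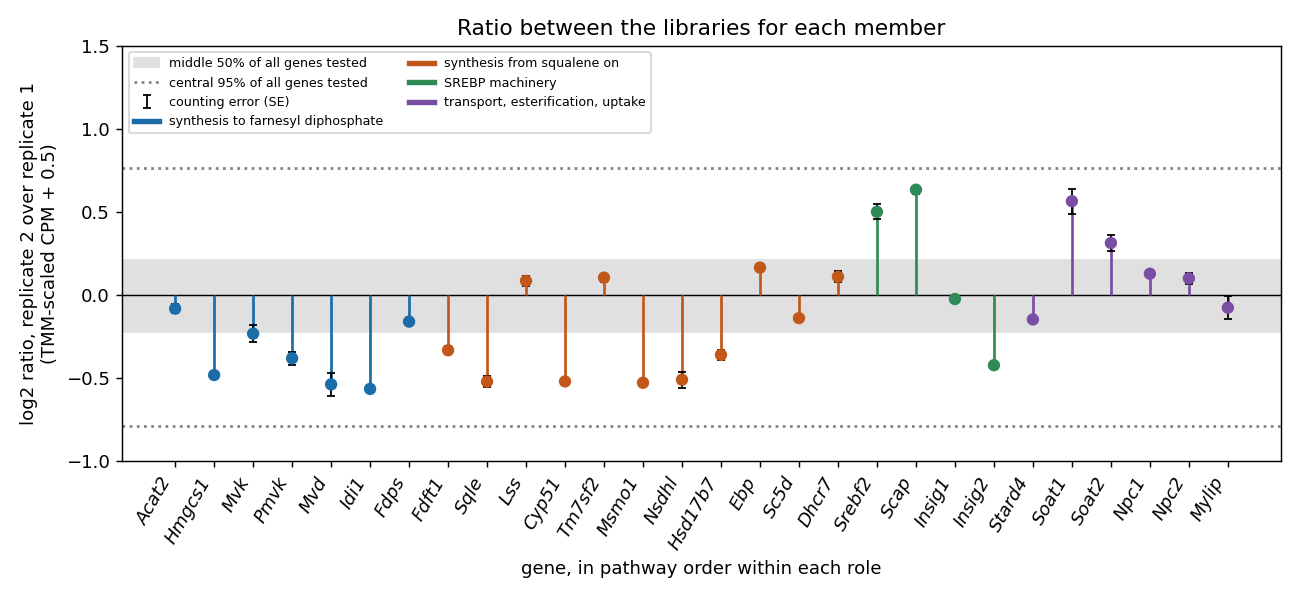
Log2 ratio of replicate 2 over replicate 1 for the 28 genes in pathway order (TMM-scaled CPM plus 0.5), with bands for the middle 50% and the central 95% of all genes with a mean count of 100 or more. The 18 enzymes have a median of -0.35, which is 0.22 with deposited TPM, and Srebf2 and Scap lie at 0.50 and 0.64.

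GC content, the share of G and C bases in a transcript, moved with the ratio over all genes. With the genes in 10 bins of GC, the lowest bin, with a median GC of 39.7%, had a median ratio of -0.22, and the highest, at 59.4%, had 0.21. Across the 28 members the Spearman correlation of GC with the ratio was 0.394, and across 11508 genes it was 0.415. Idi1 and Hmgcs1 have a low GC content, of 41.9% and 43.4%, whereas Mvd has 59.3%. Relative to genes of the same GC bin, Idi1 stood at -0.39, Hmgcs1 at -0.30 and Mvd at -0.74. Scap, at 59.1% GC, stood at 0.43 and Srebf2, at 57.9%, at 0.29 on the same scale. The median of the 18 enzymes on that scale was -0.33, with 14 below 0. Soat1, at 44.1% GC, stood at 0.68, farther from its GC bin than from all genes.

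**Figure D3:**
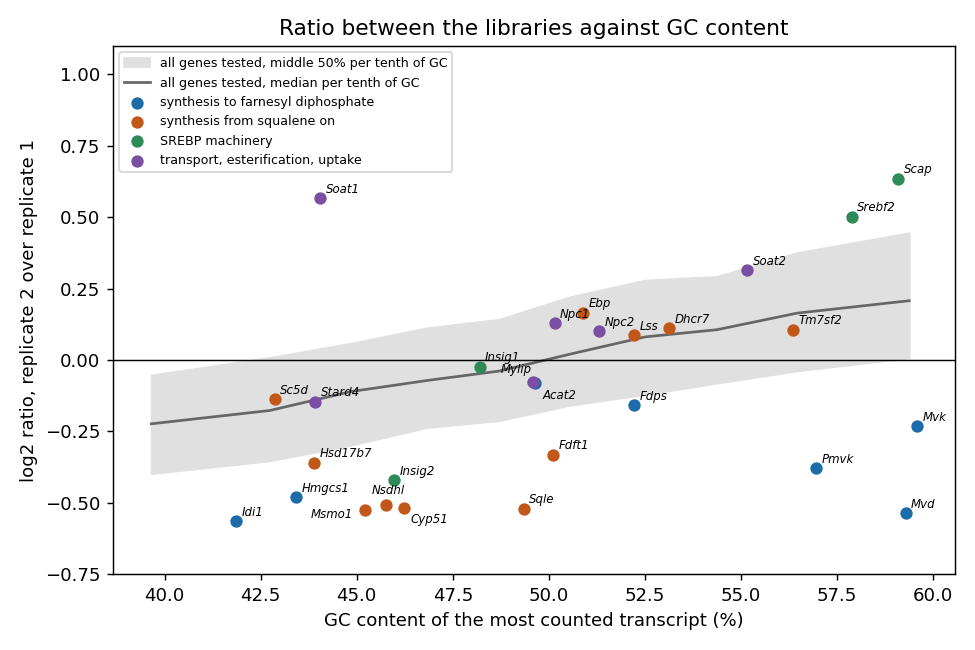
Log2 ratio of replicate 2 over replicate 1 (TMM scaling) against the GC content of the most counted transcript in percent, for the 28 genes, with the median and middle 50% of all genes in each of 10 GC bins. Scap and Srebf2 lie above the band at high GC, and Mvk, Pmvk and Mvd, at a similar GC content, lie under it.

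Zonation markers moved between the libraries too. Hepatocytes near the portal vein and near the central vein differ in metabolism, and cholesterol synthesis is known as a periportal function. Of 7 periportal markers 5 were higher in replicate 2 under TMM, with a median ratio of 0.37 and summed levels of 837 and 1477 TPM. Of 7 pericentral markers 6 were lower under TMM, with a median of -0.63 and sums of 1015 and 963 TPM. No marker of either list was at 0. Under TMM the synthesis enzymes, with a median of -0.35, lay on the side of the pericentral list and opposite the periportal one. With deposited TPM the medians were 0.22 for the enzymes, 0.89 for the periportal list and -0.081 for the pericentral list. With the spike-in total they were -0.027, 0.69 and -0.31. The part of zonation in the ratios of the enzymes was not tested.

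Of 26 other genes of the pathway, 24 reached a mean count of 100, and 14 of them were lower and 10 higher in replicate 2, with a median of -0.04. None lay more than 2-fold apart under TMM, though Scd1 did with the spike-in total, at 1.29, and with deposited TPM, at 1.52. The proteases that cut SREBP stood at 0.22 (Mbtps1) and 0.18 (Mbtps2). Among genes that act in sterol-driven turnover of membrane proteins, the adaptor Faf2 stood at 0.12 and the ligase Rnf139 at -0.05. Ggps1, Dhdds and Nus1, which lead farnesyl diphosphate to other isoprenoids, lay between -0.07 and 0.01. With the spike-in total they lay between 0.25 and 0.32, near the median of all genes on that scale, 0.29.

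Of 7 SREBP1 target genes of fatty acid synthesis, 5 were lower and 2 higher in replicate 2, with a median of -0.14. Counts of Scd1, the stearoyl-CoA desaturase, were 210466 and 386412, a ratio of 0.97. Elovl6 and Me1 stood at -0.62, Acss2 at -0.61, Fasn, the fatty acid synthase, at -0.14, Acaca at -0.09 and Acly at 0.28. Srebf1 itself was level at -0.02. Of the 5 genes on the side of the liver X receptors, which respond to oxysterols, 3 were higher, with Nr1h2 at 0.59 and Abca1 at 0.34, and Abcg5 was lower at -0.38.

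The promoters of several members are printed here because CCAAT boxes, known as sites of the factor NF-Y that works with SREBP2, recur in them. Sequences are from the RefSeq promoter table for GRCm38.p6, which held 22 of the 28 genes and gives 250 bases before to 50 after each start. Capitals mark CCAAT, or ATTGG where it lies on the other strand, and TCACNCCA, the core of a sterol regulatory element. The stretches are Hmgcs1 at chr13:119690101-119690350, Srebf2 at chr15:82147019-82147180, the interval between Mvk and Mmab at chr5:114444061-114444268 and that between Nsdhl and Cetn2 at chrX:72918412-72918520, all on the plus strand.
Hmgcs1: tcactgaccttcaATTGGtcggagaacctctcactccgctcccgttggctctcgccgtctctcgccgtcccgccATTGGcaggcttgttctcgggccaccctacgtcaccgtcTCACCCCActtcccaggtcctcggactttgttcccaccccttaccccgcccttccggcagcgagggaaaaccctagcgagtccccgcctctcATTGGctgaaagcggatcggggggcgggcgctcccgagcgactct
Srebf2: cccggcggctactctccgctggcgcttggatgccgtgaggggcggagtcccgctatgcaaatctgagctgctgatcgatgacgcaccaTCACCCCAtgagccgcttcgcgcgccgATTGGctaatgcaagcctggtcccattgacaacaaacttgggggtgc
Mvk and Mmab: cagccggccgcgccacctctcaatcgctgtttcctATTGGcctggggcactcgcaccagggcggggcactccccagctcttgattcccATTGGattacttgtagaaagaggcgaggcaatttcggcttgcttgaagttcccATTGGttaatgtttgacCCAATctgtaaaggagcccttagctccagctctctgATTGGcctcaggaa
Nsdhl and Cetn2: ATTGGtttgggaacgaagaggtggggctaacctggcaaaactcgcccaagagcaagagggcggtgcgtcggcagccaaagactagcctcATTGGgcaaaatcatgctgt

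The stretch printed for Hmgcs1, one of the most abundant enzymes, holds 3 CCAAT boxes and 1 TCACCCCA, which begins 137 bases before the RefSeq start. The Srebf2 stretch holds 1 of each, with TCACCCCA 162 bases before its start. Mvk shares its upstream interval with Mmab, a cobalamin enzyme gene that starts 209 bases away on the other strand, and this interval holds 5 CCAAT boxes. The ratios of the pair were -0.23 for Mvk and -0.33 for Mmab, from 1776 and 1417 counts and from 1334 and 989 counts. Nsdhl starts 146 bases from Cetn2, a centrin gene, in GENCODE, and the 109 bases printed, which end at the earlier RefSeq start, hold 2 CCAAT boxes. Their ratios were -0.51 and -0.43. The annotated Dhcr7 gene starts 296 bases from Nadsyn1, with ratios of 0.11 and 0.27. However, Dhcr7-202, with 78.9% and 76.6% of the Dhcr7 counts, starts farther downstream at chr7:143829626, so the Dhcr7 ratio mostly reflects another start. Npc2 starts 99 bases from Isca2, with 0.10 and -0.15. Of these 4 pairs with protein-coding partners, head to head by annotated gene start, only Npc2 and Isca2 lay on opposite sides under TMM. Insig1 and the noncoding gene Gm26608, which start 258 bases apart, also did, at -0.02 and 0.23, with 107 and 124 Gm26608 counts. The noncoding partner of Hsd17b7, 3110045C21Rik, had 57 and 54 counts, under the limit of 100. With the spike-in total Mvk and Mmab lay on opposite sides instead, at 0.081 and -0.022, and Npc2 and Isca2 on the same side.

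CCAAT was found in 20 of the 22 genes with a promoter in the table, or 90.9%, against 43.2% of 8730 measured protein-coding genes, counting both strands. The exceptions were Acat2 and Scap. A gene was counted if any of its promoters held the motif. Taken singly, 20 of the 28 promoters of these genes held CCAAT, or 71.4%, against 37.4% of all 32851 promoters. The GC box GGGCGG was found in 21 of 22, or 95.5%, against 68.2%, and was missing from this window in Pmvk. TCACNCCA was found in 3 of 22, Hmgcs1, Msmo1 and Srebf2, or 13.6% against 4.47%, and the longer TCACNCCAC in 1 of 22 against 1.47%. The longer motif contains the shorter. These matches describe letters in a short window and not binding.

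Insig2 is known for separate starts, and both were counted. Insig2-201, from the downstream start, took 70.2% ± 0.864 (SD, n = 2) of the gene's transcript counts, with 7535 and 5194. Insig2-202, from the upstream start, took 27.9% ± 0.912, with 2894 and 2126. Corrected for length, their shares of the gene's TPM were closer. Insig2-201, a model of 2697 nucleotides, took 38.6% and 38.75%, and Insig2-202, of 1292, took 34.1% and 36.3%. Insig2-209, a model of 204 nucleotides that also begins near the upstream start, took 16.65% and 15.19% of TPM from 11.05 and 10.03 counts. The 2 longer models also end apart, Insig2-201 at chr1:121304353 and Insig2-202 at chr1:121305522, so their shares do not measure start use alone. The ratios were -0.45 for Insig2-201 and -0.35 for Insig2-202, so both lay on the lower side in replicate 2 under TMM scaling. The sequences before the starts are printed to show how they differ, with capitals as above: 250 bases before the upstream start (chr1:121332590-121332839, minus strand) and 67 before the downstream start (chr1:121328025-121328091, minus strand).
Insig2 upstream start: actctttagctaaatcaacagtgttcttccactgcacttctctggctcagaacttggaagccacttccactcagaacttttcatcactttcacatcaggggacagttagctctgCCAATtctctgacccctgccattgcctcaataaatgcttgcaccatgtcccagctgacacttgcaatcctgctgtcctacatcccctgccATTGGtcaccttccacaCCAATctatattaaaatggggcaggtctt
Insig2 downstream start: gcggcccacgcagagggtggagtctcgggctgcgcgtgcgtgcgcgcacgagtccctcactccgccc

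The upstream start has 3 CCAAT boxes in its 250 bases and the shorter stretch before the downstream start has none.

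Of the 28 members, 9 have a single annotated transcript and 19 have several. In the 19, the most abundant transcript took a median of 89.3% ± 2.03 (SD, n = 2) of the gene's TPM, and its identity differed between the libraries in Soat1 alone of the 19. Noncoding models took a large share in a few genes. For Lss they held 25.7% and 21.3% of counts, all in retained-intron models. For Msmo1 they held 29.2% and 33.3%, most of it in Msmo1-206, a processed transcript with 23.4% and 26.0%. For Dhcr7 they held 10.7% and 10.3%, most of it in a nonsense-mediated decay model. By TPM, which gives short models more weight, the noncoding shares were larger, at 39.6% and 39.5% for Lss, 36.8% and 41.0% for Msmo1 and 28.8% and 27.4% for Dhcr7. These enzymes thus have less coding RNA than their gene totals show. In Ebp the retained-intron share of counts was 15.8% in replicate 1 and 9.44% in replicate 2, and that of TPM 34.8% and 23.6%. With only the most counted transcript of each enzyme, the median ratio was -0.29 and 14 of 18 were lower.

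Soat1 shows how few reads can set a TPM share. Soat1-205, a short model, took 37.1% of the gene's TPM in replicate 1 from 18.1 counts. By counts Soat1-207 was the main transcript in both libraries, with 523.5 and 693.5. Soat1-201 had 32.2 counts in replicate 1 and 176.8 in replicate 2, the library with more adrenal marker RNA; the part of adrenal RNA in this difference was not tested. The effective length of the gene was 3175 nucleotides in replicate 1 and 3954 in replicate 2, and its TPM is divided by that length. Pmvk-202 held 373.9 counts in replicate 1 and 0 in replicate 2.

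**Figure D4:**
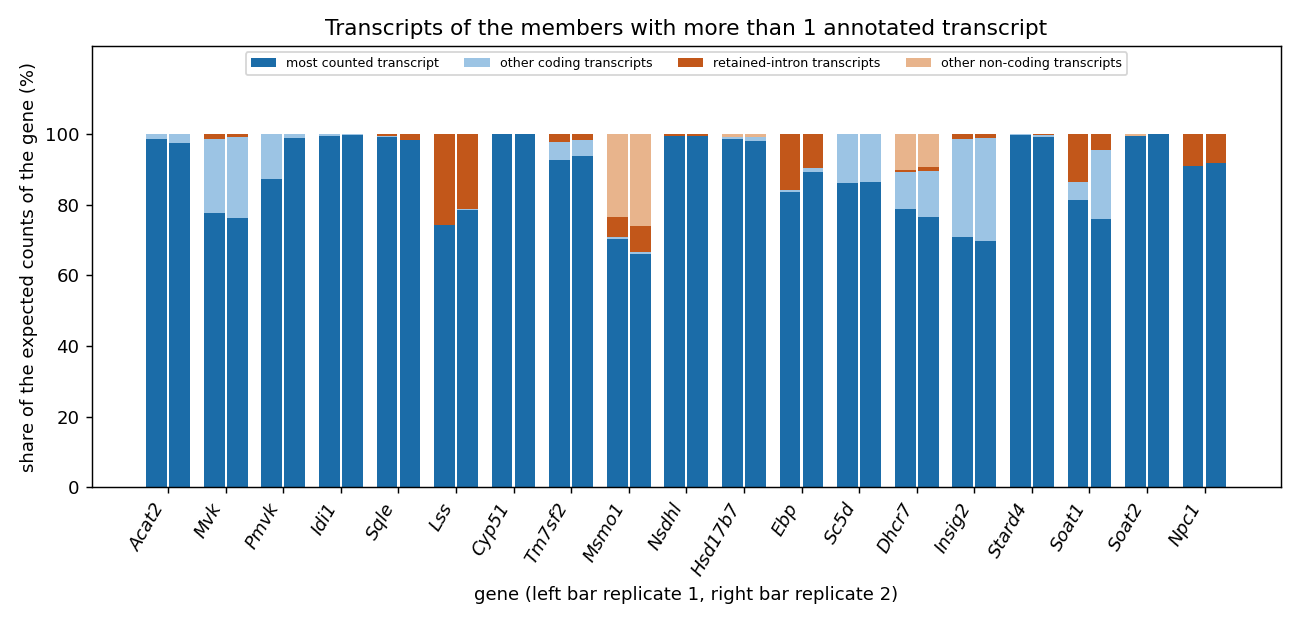
Share of each gene's transcript counts by transcript class in percent, for the members with several annotated transcripts, with 1 bar for each library. Noncoding classes take 25.7% and 21.3% in Lss and 29.2% and 33.3% in Msmo1.

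Some members overlap other expressed genes, and whether counting used the strand is not given in the sources used here. Fdft1 overlaps Ctsb by 774 bases on the opposite strand, and Ctsb, a lysosomal protease gene, had 20603 and 26160 counts and a ratio of 0.43. Cyp51 overlaps Akap9 by 166 bases, with 7597 and 4666 counts and a ratio of -0.61 for Akap9. Tm7sf2 overlaps Vps51 by 532 bases on the same strand, and Npc1 overlaps Rmc1 by 967 bases on the other. Mvd lies opposite Gm20388, which had 824 and 944 counts against 1113 and 710 for Mvd. The posterior SD of the count, which reflects reads shared among genes, was under 1% of the count in all 28 members.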

How the data were processed

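The authors quantified each library separately against mm10 and GENCODE M4, per the notes deposited with each library. The aligner, the quantifier and its strand setting were not given in the sources used here. Per the file headers, the tables give an expected count per gene and transcript, estimated and not normalized, deposited TPM and FPKM values scaled for length, and the percent of each transcript in its gene. Symbols, classes and coordinates came from GENCODE M21 on the same assembly.

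Spike-ins were removed from TPM and the total was restored. Expected counts were scaled with edgeR 4.0.16 TMM factors, and with DESeq2 1.42.0 size factors as an alternative, in R 4.3.3. Log2 ratios used CPM plus 0.5, equal to 39.8 counts in replicate 1 and 37.4 in replicate 2, and therefore understate the change of low genes. Genes entered at a mean count of 100 or more. The ratios were checked on simulated counts. Other values used Python 3.11.15, numpy 2.4.6, pandas 2.3.3, scipy 1.17.1 and matplotlib 3.10.9.

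All 28 members are named, with pathway genes from fixed lists and genes that overlap a member or start near it; some listed genes are withheld for evaluation and not reported here. Members and lists were chosen with earlier results of these data known. Levels, ratios within a library, transcript shares and promoter letters were described per library, and the alternatives tried were other scalings, pseudocounts, filters and units.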

Additional observations from a re-analysis of the deposited data

How the results depend on the processing

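No paired analysis was possible because both libraries form 1 group. As a share of protein-coding TPM the summed level of the 18 enzymes was 0.288% and as a share of counts 0.257%, against 0.0409% of endogenous TPM; leaving out each library in turn gave 0.0365% to 0.0452%. The median ratio of the enzymes was -0.027 with the spike-in total, with 10 enzymes lower, and 0.22 with deposited TPM, where 3 enzymes were lower in replicate 2. It kept its sign, with 14 lower, under DESeq2 size factors, a smaller pseudocount, comparison within GC bins and the most counted transcript only; the filters on low values left all 18 enzymes in and so could not change it. In counts not divided by length, the ratio of Insig2 to Insig1 was 0.205 (0.317 to 0.428 in TPM with either library left out), that of Soat2 to Soat1 2.68 (4.66 to 4.77) and that of Srebf1 to Srebf2 6.78 (9.39 to 14.2). The main transcript took a median of 92.5% by counts. With TPM rescaled over protein-coding genes, or with FPKM, 28 members reached 1 in both libraries, against 27. The GC, transcript, protein-coding detection and FPKM detection alternatives were chosen after seeing the data. A single library on each side sets the limit of every ratio: counting error is small, but the spread between animals is not known.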
